A study of Mus musculus with 384 samples.

Results

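Muramyl dipeptide (MDP), the smallest immunologically active fragment of bacterial peptidoglycan, was followed for 4 h in mouse bone-marrow-derived macrophages. The wells described are those labelled with MDP as the only ligand, 28 of the 384 wells of the series: 14 from wild-type cells (WT) and 14 from Myd88 knockout cells (KO), at 0.5, 1, 1.5, 2, 2.5, 3 and 4 h on 2 plates per genotype. Wells that received MDP together with LPS were left out. Each time was set against the 12 wells of the same plate lysed at 0 h, pooled, and the genotypes were then set against each other.

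Every well held macrophages labelled as male C57BL/6, 13 weeks old, grown from marrow in medium with the growth factor supernatant CMG. All of them, time 0 wells included, carried a pool of pathway reporter viruses added on day 4, and they were replated in 96-well format on day 9. The groups used are therefore WT at time 0, KO at time 0, and each genotype after MDP. The labels name 1 genotype per plate and do not say whether the plates of a genotype came from separate mice, so p-values measure the spread between plates, which may be technical, and genotype and plate cannot be told apart. The part of Myd88 that was deleted is not given in the sources used here.

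MDP is recognised inside the cell by NOD2, a leucine-rich-repeat receptor that recruits the kinase RIPK2. RIPK2 is decorated with ubiquitin chains by XIAP and other ligases, which brings in the TAK1 and IKK kinases and releases NF-kB from its inhibitor I-kappa-B-alpha (Nfkbia). The pathway does not use Myd88, the adaptor of most Toll-like receptors and of the interleukin-1 receptor. In macrophages MDP given alone is known as a weak stimulus that acts mostly together with Toll-like receptor ligands.

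Myd88 itself had fewer counts in KO wells. At time 0 the 2 WT plates had 30.4 and 35.04 CPM (counts scaled to a common library total, the usual depth-normalised unit) and the 2 KO plates 14.49 and 17.01. After MDP, the plate sums ranged over the time classes from 19 to 49.56 CPM in WT and from 1.139 to 25.05 CPM in KO, so those ranges overlapped. Counts come from transcript 3′ ends, so a tag outside the deleted part would check nothing.

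The MDP wells held 190260 to 516731 counts, with a median of 384938, and the shallowest was the 1 h well of KO plate 2. To gain depth, the wells of a plate were added up into an early class (its wells at 0.5 and 1 h), a middle class (those at 1.5 and 2 h) and a late class (those from 2.5 h on), which gave MDP sums of 509642 to 1323830 counts against 3167670 to 4901235 for the time 0 sums. The 22 macrophage genes checked summed to 18680 to 24170 CPM in every time 0 and MDP sum. Of other cell types, the 11 neutrophil genes summed to 161.4 to 303 CPM, and of these only Elane and Mpo were at 0 throughout. Mast cell and erythroid genes summed to at most 0.5077 CPM, and fibroblast genes to at most 18.57 CPM. Lymphocyte genes summed to 174.6 to 411.1 CPM and dendritic cell genes to 23.55 to 53.3 CPM. Cd3e and Flt3 were at 0 in all of these sums, while other members of both lists had counts.

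A small set of genes was higher after MDP than at time 0 in each genotype. The series has no well without a ligand after 0 h, so MDP and time in culture cannot be told apart in this comparison. In KO late wells 20 genes rose (0.189% of the 10562 genes tested) and 1 fell against time 0 (edgeR, adjusted p under 0.05), 0.199% in all. The risen genes included the NF-kB inhibitor Nfkbia, the NF-kB family members Bcl3 and Relb, the pattern receptors Clec4e, Tlr2 and Cd14, the fatty acid receptor Gpr84, the phosphodiesterase Pde4b, the membrane-cytoskeleton genes Ezr and Ehd1, the differentiation inhibitor Id3 and the glutathione gene Gclm. In KO middle wells 13 genes rose (0.123%) and 1 fell (0.133% in all), and in KO early wells 1 gene rose, Id3 (0.00947%; 2 genes with the replicate block, and 38 without KO plate 1). In WT wells 3 genes rose late (0.0284%: Id3, Gclm and Nfkbia), 2 rose in the middle class (0.0189%: Id3 and Nfkbia) and 0 passed early (0%, with 151 genes at an unadjusted p under 0.05 and a smallest adjusted p of 0.0649, for Id3, which passed with plate as a replicate block at 0.0362). Early and in the middle class, which genotype had more calls depended on the fit. In the late class, KO had more calls than WT under every setting tried. With only the MDP and time 0 sums fitted, 21, 23 and 19 genes were called early, middle and late in WT and 0, 14 and 128 in KO. DESeq2 gave 33, 40 and 40 in WT and 1, 26 and 134 in KO. A bulk well cannot tell fewer responding cells from less RNA per cell.

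The gene of the NF-kB inhibitor peaked at 1.5 h on all 4 plates. Nfkbia (chromosome 12, 55489410 to 55492647, minus strand, mm10) encodes I-kappa-B-alpha, which is both the brake on NF-kB and one of its most direct targets. On KO plate 1 its level was 627.1 CPM at time 0, then 740.9, 1887, 3462, 2647, 1736, 2576 and 1792 CPM from 0.5 to 4 h. KO plate 2 went from 625.7 CPM through 955, 1671, 4804, 3960, 2687 and 2973 to 1882 CPM. Both KO plates stayed above all 24 KO time 0 wells, the highest of which had 817 CPM, at each time from 1 h on. WT plate 1 began higher, at 954.5 CPM, and went through 907, 2191, 2649, 2402, 2288 and 2510 to 2026 CPM. WT plate 2 went from 1079 CPM through 1100, 2096, 3149, 2818, 2062 and 2285 to 1510 CPM, and both WT plates began above the KO plates.

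By class, Nfkbia rose in KO by a log2 change of 2.57 (SE 0.25, adjusted p 6.56e-15) in the middle wells and 1.90 (SE 0.24, adjusted p 3.09e-09) in the late wells. In WT the changes were 1.42 (SE 0.24, adjusted p 9.75e-05) and 1.09 (SE 0.24, adjusted p 0.0405). Early, the KO change was 0.97 (SE 0.24, adjusted p 0.174), which passed under RLE scaling (1.04, adjusted p 0.0276), with no filter on low counts (0.94, adjusted p 0.0159) and with the MDP-labelled time 0 wells as baseline (1.33, adjusted p 0.00175). The KO calls held without any 1 plate, but without WT plate 1 or WT plate 2 the WT late change was 0.81 or 1.33 and the WT middle change 1.38 or 1.41, each with an adjusted p of 1. When a plate-wide background (5.643% to 16.72% of the plate's mean profile) was subtracted, the changes stayed above 0 but none passed: KO late 2.39 (SE 0.80, adjusted p 0.907), KO middle 3.11 (SE 0.83, adjusted p 0.3).

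**Figure D1:**
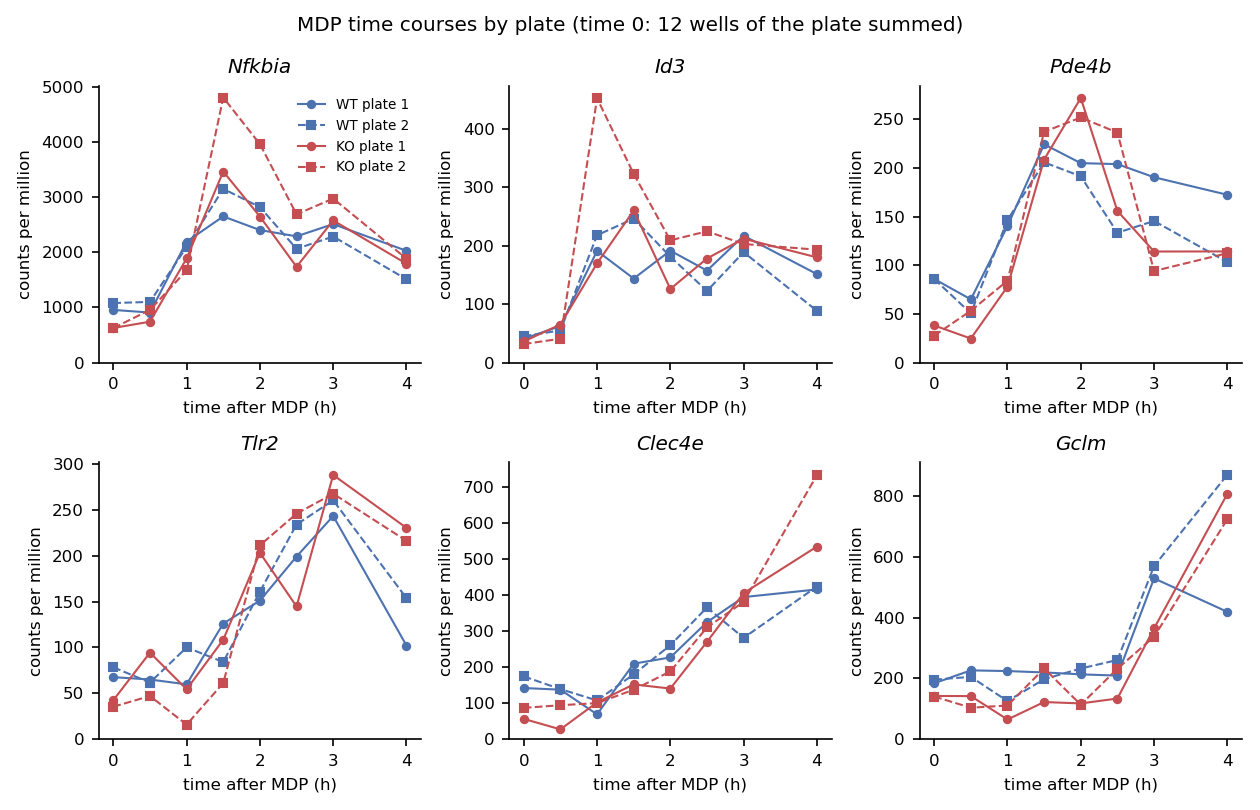
Level in CPM (vertical axis) of 6 genes against hours after MDP (horizontal axis), 1 line per plate, WT in blue and KO in red; time 0 is the sum of 12 wells of the plate and each later point is 1 well. Nfkbia peaks at 1.5 h on all 4 plates, Pde4b at 1.5 to 2 h, Tlr2 at 3 h, and Clec4e has its highest value at 4 h on all 4 plates.

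Promoter sequences were read from RefSeq (GRCm38.p6) for the 250 bases before the annotated start, because NF-kB dimers bind kappa B sites in the promoters of their targets. A kappa B consensus of 10 letters was searched by name on both strands. The promoters of Nfkbia (chr12:55492648-55492897, minus strand) and Nfkbie (chr17:45555450-45555699, plus strand), a second I-kappa-B gene described with the ligand comparisons, each hold 1 match, given in capitals, and that of Clec4e (chr6:123289872-123290121, minus strand) holds none.
Nfkbia: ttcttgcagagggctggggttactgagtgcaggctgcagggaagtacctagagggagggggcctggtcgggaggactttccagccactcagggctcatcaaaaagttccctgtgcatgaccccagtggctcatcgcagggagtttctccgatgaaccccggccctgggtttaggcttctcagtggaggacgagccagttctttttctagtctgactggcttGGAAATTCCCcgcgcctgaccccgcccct
Nfkbie: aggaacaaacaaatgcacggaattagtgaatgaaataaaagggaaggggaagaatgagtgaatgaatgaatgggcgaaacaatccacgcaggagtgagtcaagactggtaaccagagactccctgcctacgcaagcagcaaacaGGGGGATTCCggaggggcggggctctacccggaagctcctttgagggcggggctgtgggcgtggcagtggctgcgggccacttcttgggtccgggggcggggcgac
Clec4e: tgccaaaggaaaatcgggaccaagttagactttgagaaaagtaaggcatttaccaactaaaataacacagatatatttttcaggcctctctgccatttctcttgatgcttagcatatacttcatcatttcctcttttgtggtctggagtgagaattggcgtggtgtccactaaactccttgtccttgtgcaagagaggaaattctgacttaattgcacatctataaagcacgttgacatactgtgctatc

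The Nfkbia match begins at base -29 relative to the start and the Nfkbie match at base -106. Of the 20 genes that rose late in KO, 16 had a RefSeq promoter entry and 5 of those held a match (31.2%). Among all 7974 tested genes with an entry the share was 10.5%, and among all 32851 entries 7.25%. These shares are descriptions of sequence, and a window without a match says only that the letters are not in it.

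Other regulators of NF-kB rose with Nfkbia in KO. Bcl3, an unusual I-kappa-B protein that acts in the nucleus, went from 5.993 ± 2.37 CPM at time 0 to 36.82 ± 6.96 CPM in the middle and 43.7 ± 20.9 CPM in the late class (mean ± SD, n = 2 plates here and below). Its log2 changes were 2.58 (SE 0.59, adjusted p 0.0291) and 2.86 (SE 0.58, adjusted p 0.00301). Relb, a subunit of the noncanonical NF-kB dimer, went from 20.07 ± 1.45 to 75 ± 12.9 CPM late, a change of 1.93 (SE 0.44, adjusted p 0.0163). N4bp1, a ribonuclease-like restrictor of NF-kB signalling, had 37.07 and 38.84 CPM on the KO plates at time 0, 144.7 and 102.5 CPM in the middle class and 79.56 and 134.6 CPM late (log2 1.70, SE 0.37, adjusted p 0.0143, and 1.53, SE 0.36, adjusted p 0.0265). Without 1 plate these calls could be lost: without KO plate 2 the late changes were 1.93 for Bcl3 (adjusted p 0.977), 1.67 for Relb (0.691) and 1.13 for N4bp1 (1).

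Several genes of the cell surface were among the late risers. Clec4e (chromosome 6, 123281789 to 123289870, minus strand) encodes Mincle, a lectin that binds mycobacterial glycolipids and SAP130 from dead cells. On KO plate 1 it read 56.04 CPM at time 0 and 26.94, 101.8, 151.7, 140.2, 269.8, 404.9 and 534.1 CPM from 0.5 to 4 h. KO plate 2 read 86.56 CPM at time 0 and 93.93, 99.86, 136.9, 187.8, 309.6, 380.5 and 732.1 CPM. From 2.5 h on each KO well was above all KO time 0 wells, which reached 176.6 CPM. The WT plates started at 141.6 and 173.9 CPM and ended at 415.1 and 423.3 CPM. Clec4e rose late in KO by 2.65 on the log2 scale (SE 0.32, adjusted p 1.02e-09) and late against early, a comparison without time 0 wells, by 2.55 (SE 0.34, adjusted p 1.64e-07).

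In WT, Clec4e was the 1 gene that rose late against early (log2 1.71, SE 0.33, adjusted p 0.00625; 0.00947% of genes tested; 6 genes passed with the replicate block), and that call was lost without WT plate 1 (1.56, adjusted p 1) or WT plate 2 (1.86, adjusted p 1). Against time 0 its WT late change was 1.25 (SE 0.31, adjusted p 0.173). This passed when only MDP and time 0 sums were fitted (adjusted p 0.00204), with DESeq2 on those sums (3.21e-07), and without KO plate 1 or KO plate 2 (0.000478 and 0.000372).

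Tlr2 (chromosome 3, 83836272 to 83841767, minus strand), the receptor of bacterial lipoproteins, rose in KO from 42.4 and 35.28 CPM at time 0 to 154.5 and 141.3 CPM in the middle class and 222.6 and 245.9 CPM late. The changes were 1.93 (SE 0.37, adjusted p 0.00142) and 2.62 (SE 0.37, adjusted p 1.33e-07). All 4 plates had their highest Tlr2 value at 3 h, between 243.3 and 288 CPM. The WT late sums were 188.9 and 213 CPM against 67.53 and 78.29 CPM at time 0 (log2 1.50, SE 0.35, adjusted p 0.107), and this passed with plate as a term (adjusted p 0.0317), with DESeq2 (2.33e-07) and without KO plate 1 (0.000485) or KO plate 2 (0.000372). The middle KO call of Tlr2 was lost without WT plate 1 (1.92, adjusted p 0.08) or WT plate 2 (1.92, 0.0742).

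Cd14, the co-receptor that hands lipopolysaccharide to TLR4, stood at 305 ± 14.9 CPM in KO at time 0 and 629.4 ± 24 CPM late (log2 1.08, SE 0.24, adjusted p 0.0119). Gpr84, a receptor for medium-chain fatty acids, went from 7.398 ± 4 to 50.14 ± 4.99 CPM (log2 2.76, SE 0.47, adjusted p 5.67e-05). Icam1, the adhesion ligand of leukocyte integrins, went from 60.71 ± 20.5 to 184.6 ± 24.3 CPM (log2 1.63, SE 0.34, adjusted p 0.00429). For each of these genes both KO late sums lay above both KO time 0 sums. Without KO plate 2 Gpr84 changed by 2.21 (adjusted p 0.0728) and Cd14 by 0.99 (adjusted p 0.178), and without WT plate 1 Icam1 changed by 1.63 (adjusted p 0.378).

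Pde4b, Ezr and Ehd1 also rose in KO. Pde4b, the phosphodiesterase that degrades cyclic AMP in myeloid cells, peaked in KO at 1.5 to 2 h: from 38.14 CPM at time 0 to 271.8 CPM at 2 h on plate 1 and from 27.67 to 251.8 CPM on plate 2. It changed by 2.88 in the middle class (SE 0.33, adjusted p 5.62e-11) and 2.08 late (SE 0.33, adjusted p 5.34e-06). Ezr, which ties the membrane to actin, had 92.68 and 74.38 CPM at time 0 and 339.2 and 312.4 CPM late (log2 2.00, SE 0.33, adjusted p 3.36e-05). Ehd1, a regulator of endosome recycling, had 83.31 and 56.86 CPM and then 271.6 and 232.3 CPM (log2 1.88, SE 0.32, adjusted p 4.28e-05). The calls of Pde4b, Ezr and Ehd1 held late without any 1 plate.

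Tnfaip2, an NF-kB target that drives membrane protrusions, went from 239.4 ± 25.2 to 579 ± 65.5 CPM in KO late wells (log2 1.31, SE 0.28, adjusted p 0.00466). The transglutaminase gene Tgm2 went from 76.91 ± 15.1 to 214.6 ± 6.75 CPM (log2 1.51, SE 0.32, adjusted p 0.00594). Sqstm1, the autophagy adaptor p62, went from 322.5 ± 22.8 to 614.7 ± 80.9 CPM (log2 0.96, SE 0.23, adjusted p 0.0396). Sqstm1 lost its call whichever of the 4 plates was left out, Tgm2 was not called without KO plate 2 (1.36, adjusted p 0.151), and Tnfaip2 was not called without WT plate 1 (1.30, adjusted p 0.111) or WT plate 2 (1.30, adjusted p 0.133). The remaining late risers were Cebpb, Slc4a7 and Zfp263, and the naming rule selected neither these nor Tnfaip2. Of the 20 risen genes, 8 had their highest KO mean at 4 h and 7 at 3 h.

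Over the KO late comparison, 8 genes passed in every fit that left out 1 plate: Clec4e, Ehd1, Ezr, Gclm, Id3, Nfkbia, Pde4b and Tlr2. The number called was 9 without WT plate 1, 9 without WT plate 2, 22 without KO plate 1 and 14 without KO plate 2.

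In the KO middle class Cxcl2, Junb, Phlda1 and Flrt3 rose and were not called late against time 0. Cxcl2, the chemokine that recruits neutrophils, had 31.32 and 34.52 CPM at time 0, reached 257.9 CPM at 1 h on plate 1 and 144.2 CPM at 1.5 h on plate 2, and stood at 75.47 and 72.06 CPM at 4 h. Its middle change was 2.03 (SE 0.46, adjusted p 0.0291). Junb, a subunit of the AP-1 transcription factor, went from 152.7 ± 0.842 to 356.2 ± 31.6 CPM (log2 1.22, SE 0.28, adjusted p 0.0291). Phlda1 changed by 1.57 (SE 0.37, adjusted p 0.0435) and the cell-surface gene Flrt3 by 3.72 (SE 0.79, adjusted p 0.0143), the latter from 24 counts over both time 0 sums. Tnip3 and Id2 also rose and were not selected by the naming rule. Only the calls of Id3, Nfkbia and Pde4b held in this class without any 1 plate, and the number called was 3 without WT plate 1, 3 without WT plate 2, 12 without KO plate 1 and 8 without KO plate 2.

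Genes that fell were few. Gm4951 fell in KO middle wells from 102.7 and 130 CPM to 33.4 and 34.18 CPM (log2 -1.77, SE 0.39, adjusted p 0.0143), and read 69.12 and 75.29 CPM late. Kctd12b fell in KO late wells (log2 -3.75, SE 0.93, adjusted p 0.045), from 23.22 and 46.71 CPM to 4.822 and 0 CPM, which is 6 counts in all. Without KO plate 2 the change of Kctd12b was -2.20 (adjusted p 1) and that of Gm4951 -1.60 (adjusted p 0.338).

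**Figure D2:**
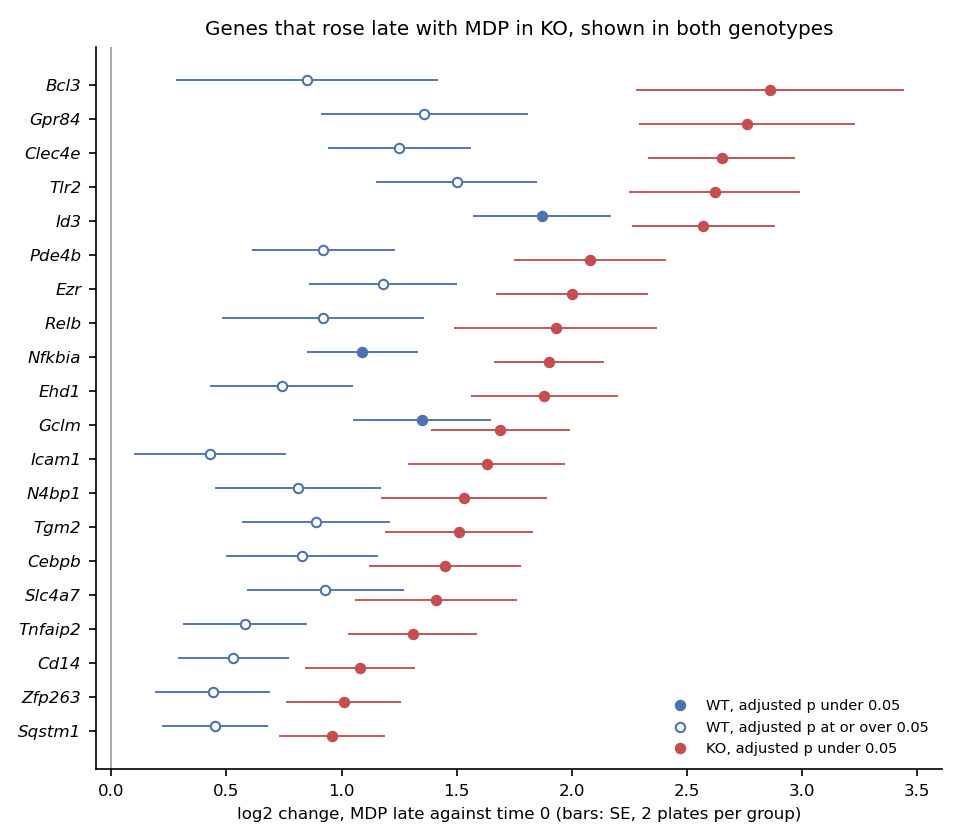
Log2 change of MDP late wells against time 0 (horizontal axis) with its SE for the 20 genes that rose in KO, WT in blue and KO in red, filled where the adjusted p was under 0.05. All 20 WT points lie above 0, and 3 of them are filled (Nfkbia, Id3 and Gclm).

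Id3 encodes an inhibitor of basic helix-loop-helix transcription factors and is a classical target of BMP and TGF-beta signalling (chromosome 4, 136143497 to 136145755, plus strand). On KO plate 1 it had 36.22 CPM at time 0, 65.11 CPM at 0.5 h and 169.7, 260.1, 125.9, 178, 211.9 and 180 CPM from 1 to 4 h. KO plate 2 had 31.73 CPM at time 0, 40.7 CPM at 0.5 h and 452, 322.7, 209.1, 224.5, 202.8 and 193.1 CPM thereafter, the 452 CPM being 86 counts in the shallowest MDP well. WT plates rose from 40.6 and 45.14 CPM to 191 and 217.8 CPM at 1 h. Levels on all 4 plates stepped up between 0.5 and 1 h, though single time 0 wells reached 161.8 CPM in KO and 128.8 CPM in WT. In KO, Id3 also rose from 0.5 to 1 h on both plates with Pam3Cys, R848, CpG and FLA. With CpG it went from 84.19 and 64.34 to 210.1 and 149.4 CPM. WT wells of other ligands went both ways: FLA fell from 174 and 168.7 to 102.9 and 96.12 CPM, and Poly(I:C) rose from 152.1 and 131.7 to 331 and 335.2 CPM.

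In KO the Id3 changes were 2.16 early (SE 0.31, adjusted p 2.17e-06), 2.75 in the middle class (SE 0.31, adjusted p 3.16e-11) and 2.57 late (SE 0.31, adjusted p 9.05e-10). In WT they were 1.45 (SE 0.31, adjusted p 0.0649), 2.13 (SE 0.31, adjusted p 1.83e-06) and 1.87 (SE 0.30, adjusted p 7.79e-05). The KO early call was lost without KO plate 2 (1.50, adjusted p 0.508) and when only MDP and time 0 sums were fitted (2.17, adjusted p 0.976). Without WT plate 1 or WT plate 2, the WT changes were 2.15 and 2.04 in the middle class (adjusted p 0.402 and 0.775) and 1.49 and 2.18 late (adjusted p 1 and 0.25). Id1, a relative of Id3, rose in the KO middle class from 11 counts over both time 0 sums to 57 counts (log2 4.65, SE 1.08, adjusted p 0.0291).

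Late Id3 was also above time 0 in wells of other ligands. In KO, late Id3 was 198.2 ± 13.1 CPM with MDP and 223.2 ± 15.6 with Pam3Cys, 205.2 ± 34 with R848, 237.2 ± 10.8 with CpG, 186 ± 23.4 with FLA, 190.9 ± 37.7 with HT-DNA and 173.5 ± 11.6 with TDB, against 33.98 ± 3.18 CPM at time 0. Against the mean of Pam3Cys, R848, CpG and FLA the MDP difference was -0.09 (SE 0.23, adjusted p 1), and against HT-DNA -0.04 (SE 0.30, adjusted p 0.987). A p of this size does not show that the levels are equal, but each of these ligands had a mean late Id3 level above that at time 0. With LPS the late level was 40.39 ± 0.3 CPM and with MDP and LPS together 29.55 ± 6.99 CPM.

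Gclm (chromosome 3, 122245557 to 122270732, plus strand) encodes the modifier subunit of the enzyme that makes glutathione and is a target of the oxidative stress factor NRF2. It stayed between 64.48 and 232.3 CPM on the KO plates up to 2.5 h, from 141.9 and 139.9 CPM at time 0, and then read 364.1 and 336.6 CPM at 3 h and 807 and 723.4 CPM at 4 h. On the WT plates it read 183.6 and 195.7 CPM at time 0, 528.9 and 569.2 CPM at 3 h and 418.6 and 869.8 CPM at 4 h. No MDP well on any of the 4 plates was above 260.2 CPM before 3 h.

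Gclm rose late by 1.69 in KO (SE 0.30, adjusted p 0.000114) and by 1.35 in WT (SE 0.30, adjusted p 0.0405). In KO it also rose late against early, by 2.06 (SE 0.32, adjusted p 1.08e-05). The WT call was lost with no filter on low counts (1.33, adjusted p 0.0779), with the MDP-labelled time 0 wells as baseline (1.43, adjusted p 0.0855), with background subtraction (1.57), and without WT plate 1 (1.51, adjusted p 1) or WT plate 2 (1.11, adjusted p 1).

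Late against early wells, a comparison that leaves time 0 out, 15 genes were higher in KO and 0 lower (0.142%). Clec4e, Gclm, N4bp1, Ezr (log2 2.01, SE 0.35, adjusted p 0.000224), Ehd1 (1.88, SE 0.34, adjusted p 0.000461) and Tlr2 (2.04, SE 0.38, adjusted p 0.000826) had the smallest adjusted p-values among them. Tnip1, a partner of the ubiquitin editor A20, rose by 1.29 (SE 0.31, adjusted p 0.0336) and Gpr65, an acid-sensing receptor, by 1.56 (SE 0.34, adjusted p 0.00875). N4bp1 rose by 2.60 (SE 0.44, adjusted p 0.000132), from 14.86 and 21.58 CPM early. The count was 7 without WT plate 1, 7 without WT plate 2, 131 without KO plate 1 and 10 without KO plate 2, 23 with the replicate block, and 1 when only the late and early MDP sums were fitted; Clec4e, Ehd1, Ezr, Gclm and N4bp1 passed without any 1 plate.

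Tests over all 7 times at once took in genes that moved at a single time. In KO 67 of 10167 genes passed (0.659%) and in WT 16 passed (0.157%). Fitted on the MDP wells and time 0 sums of a single genotype, the counts were 48 in KO and 118 in WT. With those of both genotypes in a shared fit and plate as a further term, they were 170 and 68. The order of the genotypes thus depended on the fit. Of the KO genes, 15 passed without any 1 plate, and the number called was 30 without WT plate 1, 27 without WT plate 2, 175 without KO plate 1 and 30 without KO plate 2. In WT the number was 3, 0, 54 and 60 in the same order.

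Skil, which encodes the TGF-beta antagonist SnoN, passed in both genotypes (adjusted p 1.95e-05 in WT and 0.000291 in KO). It was high at 2.5 h: 1002 and 542.4 CPM in WT against 218.1 and 175.5 CPM at time 0, and 559.1 and 375.7 CPM in KO against 104 and 110.4 CPM. At 3 h the levels were back at 166.6 and 204.2 CPM in WT and 119.6 and 106.6 CPM in KO. The change at 2.5 h was 1.98 in WT (SE 0.40, adjusted p 0.0212) and 2.13 in KO (SE 0.42, adjusted p 0.00112). KO plate 2 had a higher well at 1 h (431 CPM), and single time 0 wells reached 541.3 CPM in WT and 485.5 CPM in KO, so the 2.5 h wells of both WT plates and KO plate 1 lay above all time 0 wells of their genotype and that of KO plate 2 did not. At 2.5 h the wells with MDP and LPS together read 516.4 and 765.5 CPM in WT and 678.5 and 712.4 CPM in KO. Wells of the other 10 ligands ranged at that time from 167.2 to 619.5 CPM in WT and from 44.62 to 395.7 CPM in KO, so single wells of other ligands overlapped those of MDP.

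Other genes were high at 4 h. Cx3cr1, the fractalkine receptor of resident macrophages, read 1179 and 1110 CPM in KO at 4 h against 211.4 and 224.6 CPM at time 0 (log2 2.40, SE 0.41, adjusted p 2.47e-05). Mmp14, a membrane metalloproteinase, read 77.41 and 98 CPM against 9.375 and 12.18 CPM (log2 2.99, SE 0.50, adjusted p 9.08e-06). Pmepa1, an inhibitor of TGF-beta signalling, read 102.6 and 100.9 CPM against 12.57 and 13.96 CPM (log2 2.92, SE 0.50, adjusted p 1.07e-05). For Cx3cr1 and Pmepa1 both 4 h wells lay above all KO time 0 wells, while for Mmp14 a time 0 well of KO plate 2 read 107.9 CPM. These 3 genes and Skil were among the 15 that passed without any 1 plate. In WT, Cyb5r3 read 506.6 and 568.6 CPM at 4 h against 176.7 and 209 CPM (log2 1.53, SE 0.35, adjusted p 0.0466). Ccl4, a chemokine gene, passed over all times in WT (adjusted p 0.000177) with its highest MDP wells at 4 h, 907.6 and 532.8 CPM against 265 and 360.2 CPM, but a WT time 0 well reached 974.9 CPM. Sh3bgrl, Pqbp1 and Cybb also passed in WT (adjusted p 7.39e-07, 2.15e-06 and 5.16e-05), and all 3 had their highest MDP well at 4 h on both WT plates, within the range of single time 0 wells for Sh3bgrl (up to 1866 CPM). The 2 WT wells at 4 h differed more from each other than those at any other WT time (chi-square per degree of freedom 7.283, against 3.158 to 3.579). The 4 h well of WT plate 1 held 284259 counts.

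The question of whether the response to MDP differs without Myd88 was tested as the difference between the 2 changes. The 20 genes that rose late in KO were all above 0 in WT, with a median log2 change of 0.90 (0.00 over all genes tested) and 3 called. The 3 genes called late in WT were all among the 20, which is 3 of 3 and 3 of 20, where the 20 are 0.189% of all genes tested. These comparisons share no samples but come from 1 fit with 1 shared estimate of the spread. Id3, 1 of the 3, was also above time 0 late with other ligands in KO. The tests of the difference passed for 0 genes early (0%, 182 at an unadjusted p under 0.05), 0 in the middle class (0%, 121) and 0 late (0%, 62), and 0 over all times (0%, 319), with DESeq2 giving 0, 4 and 2 for the classes.

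Of the other genes called in KO, 4 are given with their WT values. Ezr went from 168.7 ± 22.5 CPM at time 0 to 372.8 ± 76.3 CPM late in WT (log2 1.18, SE 0.32, adjusted p 0.546). Gpr84 went from 18.55 ± 0.553 to 46.67 ± 9.38 CPM (1.36, SE 0.45, adjusted p 1) and Ehd1 from 132.5 ± 11.1 to 215.3 ± 7.56 CPM (0.74, SE 0.31, adjusted p 1). Pde4b went from 85.88 ± 0.0206 to 206.5 ± 11.9 CPM in the WT middle class (1.25, SE 0.32, adjusted p 0.41). For these 4 genes both WT plates lay above both time 0 sums. Ezr and Pde4b passed when only MDP and time 0 sums were fitted (adjusted p 0.00521 and 0.00626) and without KO plate 1 (0.0183 and 0.00394) or KO plate 2 (0.0188 and 0.00406), plates that hold no WT sample.

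For single genes the late difference of changes, KO minus WT, was 1.40 for Clec4e (SE 0.43), 1.12 for Tlr2 (SE 0.49), 0.81 for Nfkbia (SE 0.33), 0.70 for Id3 (SE 0.42) and 0.34 for Gclm (SE 0.41), each with an adjusted p of 1. Clec4e passed when only MDP and time 0 sums were fitted (1.41, adjusted p 0.0307) and with DESeq2 (1.41, adjusted p 0.0074). The middle difference of Nfkbia was 1.15 (SE 0.33, adjusted p 1) and passed with DESeq2 (1.17, adjusted p 0.00357). After background subtraction the Nfkbia differences turned to -0.61 in the middle class and -0.84 late.

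Starting levels are given beside the changes. Of the 20 genes, 19 had a lower time 0 level in KO than in WT, against 45.5% of all genes tested; the genes were chosen for a rise over the KO time 0 level, which favours a low value there, so nothing is read from this count. Their late levels had a median KO minus WT difference of 0.08 with 0 called. Nfkbia had 2113 ± 259 CPM in WT and 2290 ± 400 CPM in KO late wells (log2 difference 0.08, SE 0.23, adjusted p 1) from 1017 ± 87.9 and 626.4 ± 0.944 CPM at time 0. Clec4e had 367.1 ± 8.51 CPM in WT and 436.8 ± 24.5 CPM in KO, from 157.8 ± 22.9 and 71.3 ± 21.6 CPM. Tlr2 had 201 ± 17.1 and 234.3 ± 16.5 CPM, from 72.91 ± 7.61 and 38.84 ± 5.03 CPM. Whether the lower starting level in KO accounts for the larger KO changes was not tested.

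The genotypes differed in the late level of other genes. Late levels of 21 genes were lower in KO than in WT and of 0 genes higher (0.199%). Time 0 does not enter this comparison, so a late gap is not a difference in the change with MDP. The test of that difference passed for 0 genes late in the main fit. Nfkbiz, an I-kappa-B protein needed for secondary cytokine genes, had 152.4 and 144.3 CPM in WT late wells and 15.27 and 12.02 CPM in KO (log2 -3.46, SE 0.41, adjusted p 3.82e-10). Il1b, the interleukin-1-beta gene, had 532.1 and 423.8 CPM in WT and 37.77 and 60.08 CPM in KO (log2 -3.32, SE 0.43, adjusted p 2.57e-07). Cxcl1 differed by -3.76 (SE 0.61, adjusted p 8.36e-05), Ccl3 by -1.78 (SE 0.34, adjusted p 0.00152), Tnf by -2.57 (SE 0.55, adjusted p 0.0116) and Saa3, an acute-phase protein gene, by -3.60 (SE 0.81, adjusted p 0.0169). Il1a had 2 counts over both KO late sums and is given no fold.

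For Il1b, Nfkbiz and Tnf the gap stood at time 0 already. Il1b was at 544.5 ± 84.5 CPM in WT and 36.75 ± 1.36 CPM in KO before MDP, and its late change was -0.15 in WT (SE 0.38, adjusted p 1) and 0.45 in KO (SE 0.42, adjusted p 1). Nfkbiz was at 144.5 ± 9.91 and 12.77 ± 2.4 CPM at time 0, with a KO late change of 0.13 (SE 0.42, adjusted p 1). Tnf was at 261.9 ± 10.5 and 53.69 ± 0.897 CPM, with a KO late change of -0.43 (SE 0.53, adjusted p 1). In the KO middle class Il1b read 104.4 and 82.04 CPM, a change of 1.34 (SE 0.42, adjusted p 0.806) that passed with no filter on low counts (1.32, adjusted p 0.00237) and without KO plate 2 (1.48, adjusted p 0.00579).

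Of the 21 lower genes only Nfkbiz passed in every fit that left out 1 plate, and the number called was 1 without WT plate 1, 3 without WT plate 2, 34 without KO plate 1 and 29 without KO plate 2. Background subtraction left 4.

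**Figure D3:**
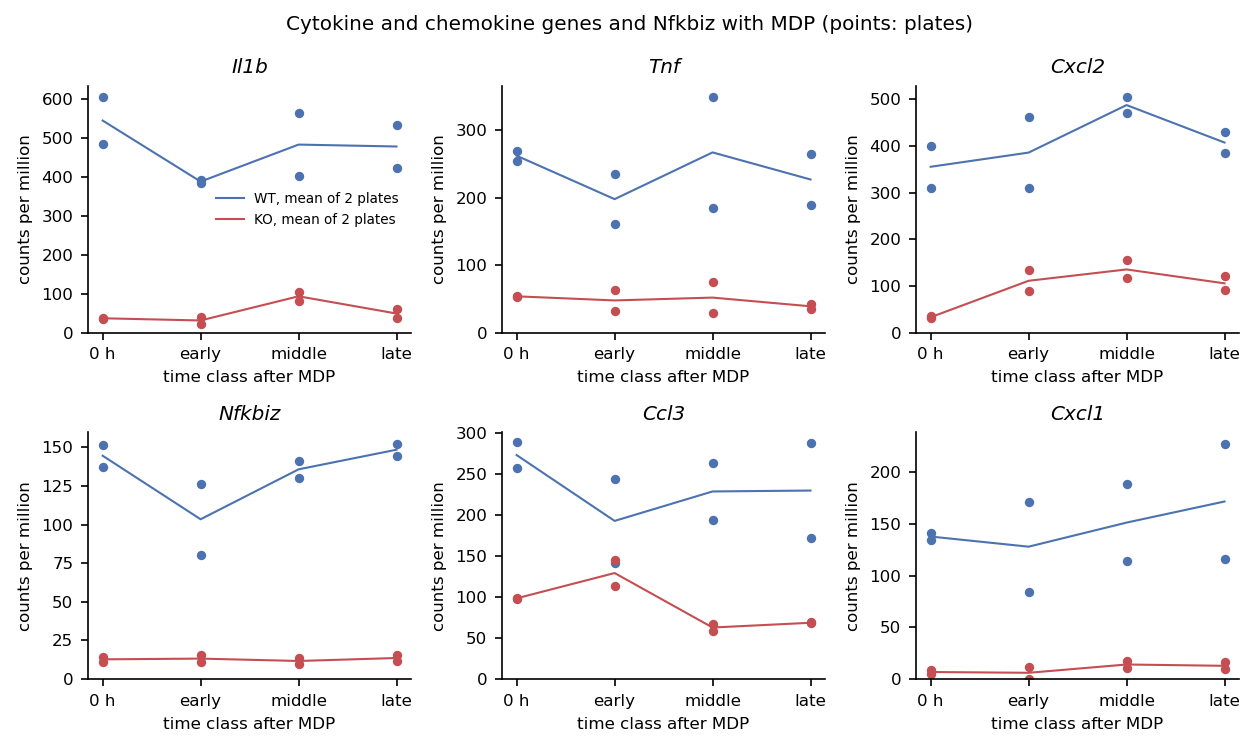
Level in CPM (vertical axis) of 6 genes at time 0 and in the early, middle and late classes after MDP (horizontal axis), points for plates and lines for means of 2 plates, WT in blue and KO in red. Il1b plates run from 22.97 to 104.4 CPM in KO and from 384 to 604.2 CPM in WT; Cxcl2 climbs in KO from 32.92 to 135.3 CPM in the middle class.

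Late MDP wells were next set against wells of other ligands that had spent the same time in culture. Pam3Cys, R848, CpG and FLA (flagellin) act through receptors that need Myd88, so their KO wells share the time, the medium and the plate with MDP. Against their mean, 42 genes were higher with MDP and 0 lower (0.398%). Clec4e was higher by 2.23 (SE 0.22, adjusted p 1.05e-13), Tlr2 by 2.37 (SE 0.26, adjusted p 4.54e-12), Nfkbia by 1.54 (SE 0.17, adjusted p 4.64e-12) and Gpr84 by 2.88 (SE 0.37, adjusted p 6.32e-09). Late Nfkbia in KO was 2290 ± 400 CPM with MDP and 928.6 ± 63, 760 ± 66.6, 710.3 ± 81.7 and 788.7 ± 157 CPM with Pam3Cys, R848, CpG and FLA. Late Tlr2 was 234.3 ± 16.5 CPM with MDP and 61.48 ± 8.83, 26.26 ± 19.2, 51.45 ± 21.2 and 43.42 ± 8.37 CPM in the same order.

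The 42 genes brought in Nfkbie, Tnip1 and Mmp14, which the late comparison with time 0 had not called in KO. The KO test over all times had called these. Relb, Bcl3 and Gclm were called late against time 0 as well. Nfkbie, a second cytoplasmic I-kappa-B, was higher by 1.25 (SE 0.30, adjusted p 0.0186), from 108.7 ± 38.9 CPM with MDP to between 42.77 ± 13.9 and 53.59 ± 19.7 CPM with the others. Tnip1 was higher by 1.09 (SE 0.22, adjusted p 0.00129) and Mmp14 by 1.92 (SE 0.44, adjusted p 0.0172). Relb was higher by 1.64 (SE 0.34, adjusted p 0.00161), Bcl3 by 2.72 (SE 0.45, adjusted p 1.88e-05) and Gclm by 1.09 (SE 0.22, adjusted p 0.00129). Of the 20 genes called late against time 0, 16 were among the 42. Both comparisons use the same late MDP sums, and the 4 genes not among the 42 were Id3, Tgm2, Sqstm1 and Cebpb.

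Promoters of the 42 genes held the kappa B consensus in 14 of the 35 with an entry (40%). Without R848, whose late wells on KO plate 2 summed to 314684 counts, 44 genes were called. The late FLA wells on KO plate 1 were also shallow, with 399976 counts, and stayed in. The count was 17 without WT plate 1 and without WT plate 2, 76 without KO plate 1 and 28 without KO plate 2, and 12 genes passed in every one of these fits: Cd14, Clec4e, Ehd1, Ezr, Gpr84, Icam1, Nfkbia, Pde4b, Slc4a7, Tlr2, Tnfaip2 and Tnip1. Nfkbia was not called after background subtraction (2.10, SE 0.54), and Nfkbie was not called under RLE scaling (1.20, adjusted p 0.0574).

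**Figure D4:**
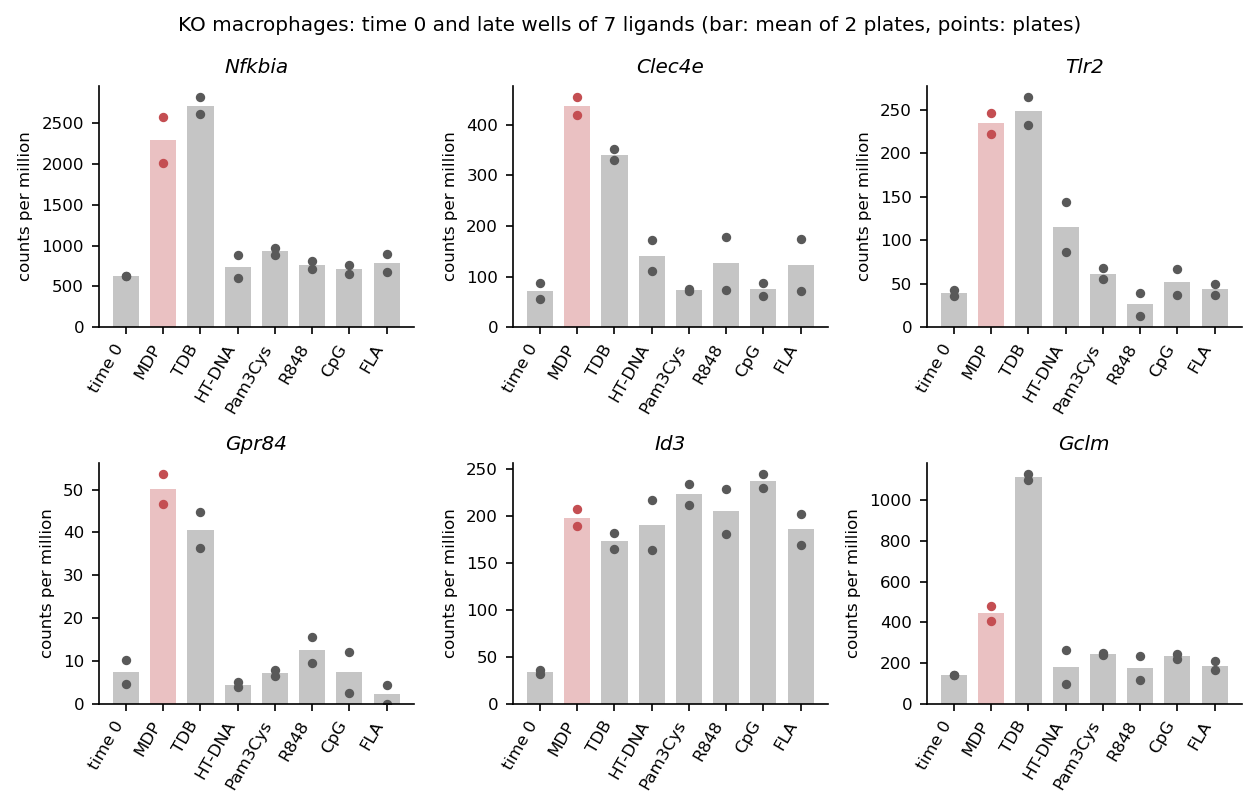
Level in CPM (vertical axis, from 0) of 6 genes in KO cells at time 0 and in late wells of 7 ligands (horizontal axis), bars for the mean of 2 plates and points for plates, MDP in red. Nfkbia, Clec4e, Tlr2 and Gpr84 are high with MDP and TDB and low with Pam3Cys, R848, CpG and FLA; Id3 is high with every ligand shown; Gclm reaches 1114 CPM with TDB and 445 CPM with MDP.

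TDB, trehalose dibehenate, a glycolipid recognised by Mincle and signalling through Syk and CARD9, does not use Myd88 either. In KO late wells Nfkbia was 2290 ± 400 CPM with MDP and 2715 ± 141 CPM with TDB (log2 -0.23, SE 0.23, adjusted p 1), and in WT 2113 ± 259 and 2253 ± 11.1 CPM (log2 -0.07, SE 0.23, adjusted p 1). With MDP 4 genes were lower in WT (0.0379%) and 3 in KO (0.0284%), and 0 were higher. All of them are NRF2 targets: Srxn1 (log2 -2.31, SE 0.38, adjusted p 9.49e-05 in WT and -2.38, SE 0.39, adjusted p 7.91e-05 in KO), Hmox1 (-1.80, SE 0.33, adjusted p 0.00108 and -1.53, SE 0.33, adjusted p 0.0314), Gclc (-2.37, SE 0.50, adjusted p 0.0175 and -2.50, SE 0.50, adjusted p 0.013) and, in WT, Gclm (-1.87, SE 0.30, adjusted p 5.93e-05).

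Late Gclm was 474.1 ± 136 CPM with MDP and 1752 ± 64.8 CPM with TDB in WT, and 445 ± 51.5 and 1114 ± 21 CPM in KO, where the difference was -1.31 (SE 0.30, adjusted p 0.056). That KO difference passed under RLE scaling (-1.30, adjusted p 0.0481) and with plate as a term (-1.30, adjusted p 0.0349). Over the 11 NRF2 targets tested, the median difference between MDP and TDB was -1.21 in WT and -1.31 in KO, with 0 of 11 above 0 in either, against 0.03 and 0.02 over all genes tested. Without WT plate 1 or WT plate 2 the WT calls fell to 0, with the replicate block 5 passed in KO, and in KO only Srxn1 passed in every fit that left out 1 plate.

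Against HT-DNA, a DNA ligand by its label, 9 genes were higher (0.0852%) and 6 lower (0.0568%) with MDP in KO late wells, 0.142% in all. The higher ones included Nfkbia (log2 1.55, SE 0.24, adjusted p 1.04e-05), Gpr84 (3.44, SE 0.65, adjusted p 0.00103), Ehd1 (1.70, SE 0.35, adjusted p 0.00352), Clec4e (1.55, SE 0.33, adjusted p 0.00629) and Tgm2 (1.64, SE 0.35, adjusted p 0.0071). The lower ones were Pik3ap1, Usp8, Fut8, A630089N07Rik, Gm17644 and Ccl7. Only the calls of Fut8, Gpr84 and Nfkbia held without any 1 plate, so those of Ehd1, Clec4e and Tgm2 did not. Late Nfkbia with HT-DNA was 738.5 ± 199 CPM, and Gpr84 4.464 ± 0.946 CPM. The HT-DNA late sums were shallow, with 389676 counts on KO plate 1 and 790586 on KO plate 2, against 1244274 and 1248426 with MDP. A level as low as that of Gpr84 therefore rests on few counts. In WT 0 genes passed (0%, 144 at an unadjusted p under 0.05, 3 with DESeq2). This comparison rested on its plates: the KO count was 7 without WT plate 1, 7 without WT plate 2, 15 without KO plate 1 and 402 without KO plate 2, and 0 when only MDP and HT-DNA sums were fitted.

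Gene lists, chosen with earlier results of these data known, describe the breadth of the changes. Shares over all genes tested, to set beside the list counts below, were 0.189% risen late and 0.123% in the middle class in KO. In WT they were 0.0284% and 0.0189%. Of 48 NF-kB primary genes tested, 10 rose late in KO, with a median log2 change of 0.69 and 40 above 0, against a median of -0.01 over all genes tested. In the KO middle class 6 of the 48 rose (median 0.74). In WT 1 rose late (Nfkbia; median 0.33, 37 above 0) and 1 in the middle class (Nfkbia; median 0.22). Of 20 feedback and anti-inflammatory genes, a list that overlaps the former, 1 rose late in KO, Bcl3 (median 0.57) and 0 in WT (median 0.27). Of 23 late inflammatory genes 0 passed in any class, with late medians of 0.36 in KO and 0.15 in WT.

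Among 14 TGF-beta and BMP targets, Id1, Id2 and Id3 rose in the KO middle class (median 0.57) and Id3 alone late in each genotype (medians 0.59 in KO and 0.69 in WT). Against the 4 Myd88-dependent ligands in KO the late median of this list was -0.08, with 0 called. Of 11 NRF2 targets, Gclm and Sqstm1 rose late in KO (median 0.64) and Gclm in WT (median 0.56, 11 of 11 above 0). Of 23 immediate early genes 1 rose, Junb, in the KO middle class (median 0.32).

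None of 40 interferon-stimulated genes passed against time 0 in any class. Their late medians were -0.10 in KO and -0.15 in WT, and Cxcl10 had 260.3 ± 32.9 CPM in KO at time 0 and 255.6 ± 30.7 CPM late. Rsad2, the antiviral enzyme viperin, had 1197 ± 201 and 1170 ± 22.8 CPM. Among macrophage identity genes 1 of 22 rose, Cd14 in KO late wells, and the median was 0.00 in KO and -0.04 in WT. Autophagy genes (16 tested) gave Sqstm1 alone in KO, and the cell cycle (24), hypoxia and glycolysis (15), heat shock (11), ATF4 and unfolded protein (14) and cholesterol synthesis (13) lists gave 0 late in either genotype. The marker lists of neutrophils, lymphocytes, dendritic cells and fibroblasts also gave 0, and no mast cell or erythroid gene passed the filter on low counts.

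**Figure D5:**
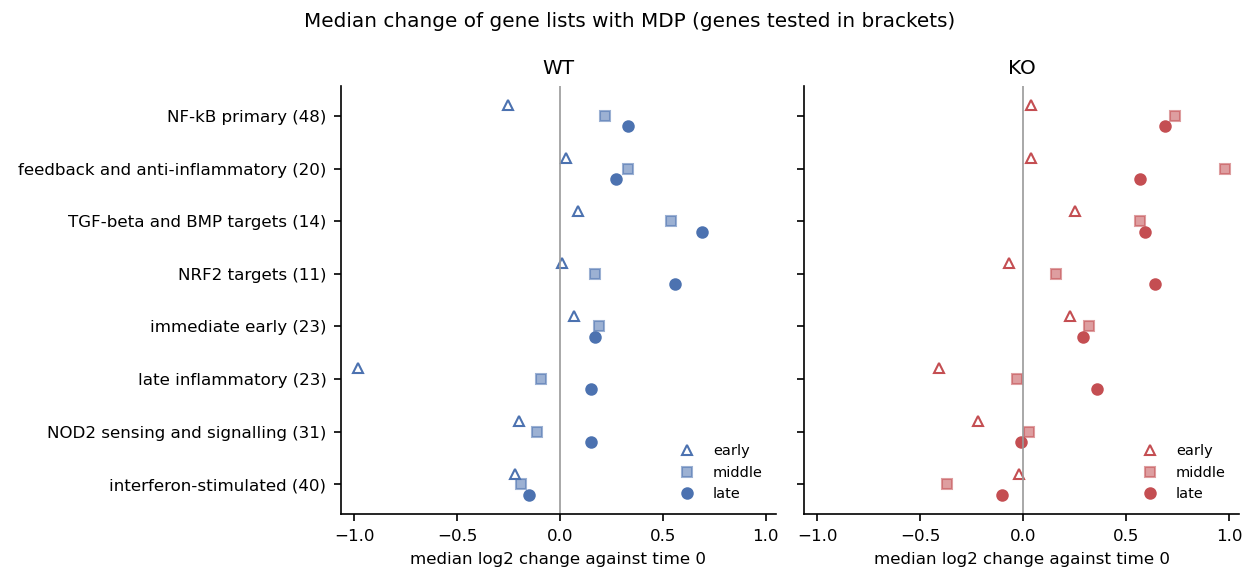
Median log2 change against time 0 (horizontal axis) of 8 gene lists after MDP, triangles for early, squares for middle and circles for late wells, WT on the left and KO on the right. The NF-kB primary list has KO medians of 0.74 in the middle and 0.69 in the late class and a WT late median of 0.33; the interferon-stimulated list lies at or below 0 in every class.

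The sensing pathway itself did not pass in any class: of 31 NOD2 pathway genes tested 0 were called, with late medians of -0.01 in KO and 0.15 in WT. Nod2 was near the limit of counting, with 26 counts over both WT time 0 sums (2.82 ± 2.65 CPM) and 11 over the KO ones (1.274 ± 0.0065 CPM), and 8 and 12 counts late. Ripk2, its kinase, had 69 counts at time 0 in WT (8.267 ± 1.87 CPM) and 28 in KO (3.309 ± 1.06 CPM), then 24 and 19 counts late. The late sums held 1069376 to 1323830 counts a plate against 3167670 to 4901235 at time 0. The raw late counts of Nod2 and Ripk2 are therefore not on the scale of the time 0 counts, and a lower count late does not show a fall. Birc3, a ubiquitin ligase of the pathway, had 352 ± 5.76 CPM in WT and 221.7 ± 13.4 CPM in KO at time 0, 149.4 ± 14.8 and 99.29 ± 6.66 CPM early, and 351.7 ± 153 and 177.4 ± 71.9 CPM late, without passing in any class. Slc15a3, a transporter that carries MDP out of endosomes, passed over all times in KO (adjusted p 0.0272): it read 264.8 and 218.6 CPM at time 0 and 468.3 and 495.7 CPM at 4 h. In WT it read 328.5 and 353.9 CPM at time 0 and 401 and 499.1 CPM at 4 h.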

How the data were processed

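Macrophages in 384 wells (4 plates of 96 wells, 12 ligands, time 0 and 7 later times) were lysed in the well, and RNA was made into 3′ digital gene expression libraries by a modified SCRB-Seq protocol with tagmentation and PCR, per the labels' protocols. The authors deposited 1 table of raw read counts per gene, 23481 genes by well, unnormalized; BWA and the mm10 build appear in the submitters' processing notes, while for the annotation, the counter and any collapsing of molecular tags the sources used here give nothing. Without known tag collapsing, reads may not be independent molecules. Genes with near-identical copies and overlapping or antisense genes cannot be told apart. The ribosomal transcript Rn45s held 8.39% of the counts of MDP wells and stayed in the table.

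Wells were grouped from the labels, and 0 columns belonged to other samples. Counts were added per plate, ligand and time class, and the sums were fitted with edgeR 4.0.16 (R 4.3.3) by quasi-likelihood with TMM scaling and filterByExpr at a minimum count of 10, which kept 10562 genes. All ligands entered 1 fit and shared 1 estimate of the spread; single times were fitted likewise on 10167 genes, with an F-test over 7 times. P-values were adjusted by Benjamini-Hochberg within a comparison, with a threshold of 0.05. The SE is the log2 change divided by the root of F. The replicate is the plate, and plates differed from each other beyond sampling noise (chi-square per degree of freedom 3.158 to 7.576 between same-time MDP wells). CPM values are each gene's share of all counts in a well or sum, scaled to a common total, and a ± gives the SD over 2 plates. The 20 gene lists, cell type markers included, were described by counts and medians. The script was tested on simulated data.

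The replicate number marks a plate, so plate could be a block within genotype; across 10562 genes the plate deviations of the time 0 and MDP sums correlated at -0.014 to 0.062. Alternatives were RLE scaling, no filter on low counts, the replicate block, leaving out each plate, the MDP-labelled time 0 wells as baseline, a plate-wide background taken off each well, a fit of only the sums compared, DESeq2 1.42.0 on those sums and, added after seeing the data, the R848 wells left out and the block in the test over all times.

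Named genes were 30 fixed panel genes, up to 10 called genes per direction with at least 30 counts and the same direction on both plates (for tests over all times, the 10 with the smallest p), and up to 4 members per list with the smallest p in the late comparisons. Tnfaip2, Cebpb, Slc4a7, Zfp263, Tnip3 and Id2 were named after their values were seen. The members and lists were chosen with earlier results of these data known.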

Additional observations from a re-analysis of the deposited data

How the results depend on the processing

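Depth limits the early class most, since it holds 509642 to 750727 counts a plate, and genes such as Nod2 and Ripk2 were near the limit of counting throughout. With 2 plates per genotype, the spread was estimated over all ligands; a lone plate left after another was left out is assumed to vary like the other groups. Of 99 gene-level log2 changes recomputed, 94 kept their direction and their side of the threshold under RLE scaling, 93 with no filter on low counts and 96 with the replicate block, 70 when only the sums compared were fitted, 58 with a plate-wide background subtracted, 56 without WT plate 1, 58 without WT plate 2, 83 without KO plate 1 and 71 without KO plate 2. The 2 that turned direction did so with that subtraction: the KO minus WT difference in the change of Nfkbia was -0.61 in the middle class and -0.84 late. The cause was not tested for these or for the counts below.

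With RLE scaling, 1 gene was called early in WT and 4 early in KO. With no filter on low counts the counts were 5 early and 22 in the middle class in KO, 5 late against early in WT, 1 against HT-DNA in WT, 7 against TDB and 61 against HT-DNA in KO, and 26 over all times in WT. With the plate as a replicate block they were 1 early in WT, 2 early in KO, 6 and 23 late against early in WT and KO, and 5 against TDB in KO. Over all times the block was fitted only on the MDP wells and time 0 sums of both genotypes together, which gave 68 in WT and 170 in KO. Without the block, fits of a single genotype gave 118 in WT and 48 in KO. These fits differ in the block and in the genotypes that share the spread, so the shift cannot be credited to the block alone. The block moved no other count by more than 1.5 times, and among named genes it changed the calls of Id3 early in WT, Tlr2 late in WT and Gclm against TDB in KO. With the MDP-labelled time 0 wells as baseline, 4 genes were called in the middle class in WT, and 4, 27 and 36 early, middle and late in KO.

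With the plate-wide background subtracted, 1 gene was called in each class in WT, 2 in the middle class and 9 late in KO, 4 for the late level, 2 and 5 late against early in WT and KO, 1 against TDB in KO, 23 against the 4 Myd88-dependent ligands and 23 over all times in KO. In a fit of only the sums compared the counts were 21, 23 and 19 early, middle and late in WT, 0 early and 128 late in KO, 2 for the late change, 129 for the late level, 24 and 1 late against early in WT and KO, 19 and 10 against TDB in WT and KO, 1 and 0 against HT-DNA in WT and KO, 6 against the 4 ligands, and 118 over all times in WT. DESeq2 on the same sums called 33, 40 and 40 early, middle and late in WT, 26 and 134 in the middle and late classes in KO, 4 and 2 for the middle and late changes, 100 for the late level, 47 and 5 late against early in WT and KO, 23 and 20 against TDB, 3 and 5 against HT-DNA, and 14 against the 4 ligands.

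Leaving out each plate in turn gave ranges of 0 to 1 early, 0 to 4 middle and 0 to 12 late in WT, and 1 to 38, 3 to 12 and 9 to 22 in KO. The early change ranged from 0 to 4, the late level from 1 to 34, and late against early from 0 to 18 in WT and 7 to 131 in KO. Against TDB the range was 0 to 9 in WT and 1 to 5 in KO, against HT-DNA 0 to 2 and 7 to 402, and against the 4 ligands 17 to 76. Over all times it was 0 to 60 in WT, 27 to 175 in KO and 0 to 4 for the difference.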
